A study of Mus musculus with 9 samples.

Results

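The Hox genes were followed across 3 stages of mouse skeletal muscle satellite cells, the resident stem cells of muscle. Genes named Hox with a cluster letter a to d and a number were taken, and 38 are described, of 45706 genes in the table. They lie in 4 clusters, with 10 described genes in HoxA, 10 in HoxB, 9 in HoxC and 9 in HoxD. The stages were freshly isolated satellite cells, proliferating satellite cells and myotubes, with 3 libraries each from different animals. All animals were wild-type C57Bl6 mice of 12 to 20 weeks. Proliferating cells had at least 3 days in medium with 20% FCS and 2.5 ng/ml human FGF-2. Myotubes, the fused and differentiated cells, had a further 6 days in medium with 2% horse serum. The labels give skeletal muscle as the source and no named muscle, so the limb, trunk or other origin of the cells is not given. The myotubes formed in a dish, without nerve or tendon.

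Hox genes encode homeodomain transcription factors that give cells their position along the head to tail axis and along the limb. Within each cluster the genes are numbered into paralogue groups from 1 to 13, low numbers being used towards the head and high numbers towards the tail and the limb tip. Their proteins bind DNA together with the TALE homeodomain proteins of the Pbx, Meis and Pknox families. Polycomb complexes keep unused Hox genes silent and trithorax complexes keep used ones on, and adult muscle stem cells still carry Hox transcripts that reflect where their muscle formed.

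RNA was depleted of ribosomal RNA and sequenced, and the values are the authors' normalized read counts per gene, rounded to whole numbers (called normalized reads here). Library totals were 20.1 to 26.2 M normalized reads in freshly isolated cells, 17.8 to 18.2 M in proliferating cells and 19.5 to 20.8 M in myotubes. From the spacing of the low values, 1 sequenced read was worth 2.18 normalized reads in freshly isolated library 1, 1.05 and 1.04 in the other freshly isolated libraries, and 0.747 to 0.938 in the culture libraries. Freshly isolated library 1 therefore had the fewest estimated reads, 12.0 M against 19.3 to 24.3 M elsewhere, and a value of 2 there is about 1 read. That library and proliferating library 1 were the least like the other libraries of their own stage, and proliferating library 1 had 2179 normalized reads of Myog, the myogenin gene of differentiating muscle cells, against 8749 and 9530 in the other proliferating libraries. Pax7, the satellite cell transcription factor, was at 11694 to 15700 normalized reads in freshly isolated cells. It was at 2556 to 3330 in proliferating cells and 1192 to 1645 in myotubes. Myh3, the embryonic myosin heavy chain, was at 23 to 83, 3055 to 23038 and 296158 to 335321 in the same order. Each is 1 gene of a marker list, and not every listed gene moved the same way. Of 6 satellite cell markers, limma called 4 down and 1 up in proliferating against freshly isolated cells (adjusted p below 0.05). In myotubes against proliferating cells it again called 4 down and 1 up. Of 5 myogenic differentiation markers, 4 were called up and 0 down in the first comparison. In the second, 4 were called up and 1 down.

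Promoter sequences were available in RefSeq's table for 22 of the 38 genes, as 24 windows of 250 bases before to 50 bases after a start site, on GRCm38.p6. The 5 shown, given 5′ to 3′ on the gene's strand, belong to genes on which the results turn. Hoxd4, Hoxd8 and Hoxd9 are neighbours in HoxD, and the first pair had their highest levels in myotubes. Hoxa9 and Hoxc4 had their highest levels in proliferating cells. Capitals mark the E-box CANNTG, the core motif of myogenic bHLH factors such as MyoD and myogenin.
Hoxd4: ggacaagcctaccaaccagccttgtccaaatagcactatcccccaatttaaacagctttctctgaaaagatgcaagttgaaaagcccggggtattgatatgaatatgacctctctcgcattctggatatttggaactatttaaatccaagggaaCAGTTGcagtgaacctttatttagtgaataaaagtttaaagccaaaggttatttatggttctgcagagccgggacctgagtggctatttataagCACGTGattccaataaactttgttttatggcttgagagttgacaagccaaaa
Hoxd8: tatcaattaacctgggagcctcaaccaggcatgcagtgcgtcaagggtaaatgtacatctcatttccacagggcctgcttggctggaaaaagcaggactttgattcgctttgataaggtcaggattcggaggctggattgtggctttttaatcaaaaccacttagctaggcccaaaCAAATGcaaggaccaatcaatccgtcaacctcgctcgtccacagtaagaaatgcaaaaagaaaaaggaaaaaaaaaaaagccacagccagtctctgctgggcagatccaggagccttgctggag
Hoxd9: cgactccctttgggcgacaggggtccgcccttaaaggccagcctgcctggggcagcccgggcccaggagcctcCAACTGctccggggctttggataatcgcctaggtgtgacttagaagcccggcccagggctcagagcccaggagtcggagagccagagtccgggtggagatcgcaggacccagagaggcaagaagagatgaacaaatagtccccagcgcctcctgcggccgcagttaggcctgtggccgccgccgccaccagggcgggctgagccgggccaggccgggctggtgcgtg
Hoxa9: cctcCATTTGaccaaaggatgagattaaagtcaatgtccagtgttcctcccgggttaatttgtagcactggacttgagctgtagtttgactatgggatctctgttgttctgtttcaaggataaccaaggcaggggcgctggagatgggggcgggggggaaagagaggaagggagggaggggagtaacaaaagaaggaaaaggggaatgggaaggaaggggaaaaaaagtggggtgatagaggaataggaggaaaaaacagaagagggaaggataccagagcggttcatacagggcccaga
Hoxc4: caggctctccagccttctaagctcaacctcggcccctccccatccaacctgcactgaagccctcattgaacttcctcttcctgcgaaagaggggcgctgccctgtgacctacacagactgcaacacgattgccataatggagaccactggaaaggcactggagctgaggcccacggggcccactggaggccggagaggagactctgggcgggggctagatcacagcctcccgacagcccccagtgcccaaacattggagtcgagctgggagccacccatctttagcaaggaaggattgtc
The windows lie at chr2:74721728-74722027 (plus strand), chr2:74704365-74704664 (plus), chr2:74697513-74697812 (plus), chr6:52227321-52227620 (minus) and chr15:103034145-103034444 (plus). The RefSeq start of Hoxd9 is 36 bases from the nearest GENCODE vM21 start, and the other 4 coincide with one. The Hoxd4 window held 2 E-boxes, Hoxd8, Hoxd9 and Hoxa9 held 1 each and Hoxc4 held none. Because CANNTG reads the same on both strands, each match is counted once. Over the 24 Hox windows 17 held at least 1 E-box, against 72.3% of 32851 windows in the table. The CAGCTG form, which is also a CANNTG match, was in 4 of 24 Hox windows and in 16.3% of all windows, and in none of the 10 HoxD windows. The Hox and TALE motif TGATNNAT, searched on both strands, was in 4 of 24 and in 8.85% of all, and TATAAA on both strands in 4 of 24 and in 13.6%. The Hox windows had a median of 14.5 CpG dinucleotides, against 7 over all windows. These matches describe letters in the windows and were not tested as binding sites.

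The Hox genes differed widely in level, and several were close to silent. A gene was tested where it had at least 10 normalized reads in at least 3 of the 9 libraries, and 29 of the 38 Hox genes passed. Hoxb6, Hoxb7, Hoxb8, Hoxc13 and Hoxd4 reached 10 in no freshly isolated library and passed only through culture libraries. A called fall from freshly isolated cells was therefore hardly open to them. Hoxb1 and Hoxd1, both of the most head-ward group 1, were listed at 0 in all 9 libraries. The other 7 below the filter were Hoxb13, Hoxc12, Hoxd3, Hoxd10, Hoxd11, Hoxd12 and Hoxd13, and none exceeded 17 normalized reads in a library. The silent or nearly silent genes thus included group 13 genes of HoxB and HoxD, among them Hoxd13, the digit gene. HoxA was carried to its tail-ward end in every stage, by Hoxa13, which patterns the hand and foot. Hoxa13 had 46, 31 and 40 normalized reads in freshly isolated cells, 34, 18 and 35 in proliferating cells and 32, 26 and 31 in myotubes. These 3 ranges overlapped. HoxC reached that end mainly in culture. Hoxc13 had 38, 74 and 46 in proliferating cells and 79, 40 and 45 in myotubes, but 4, 8 and 5 in freshly isolated cells.

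**Figure D1:**
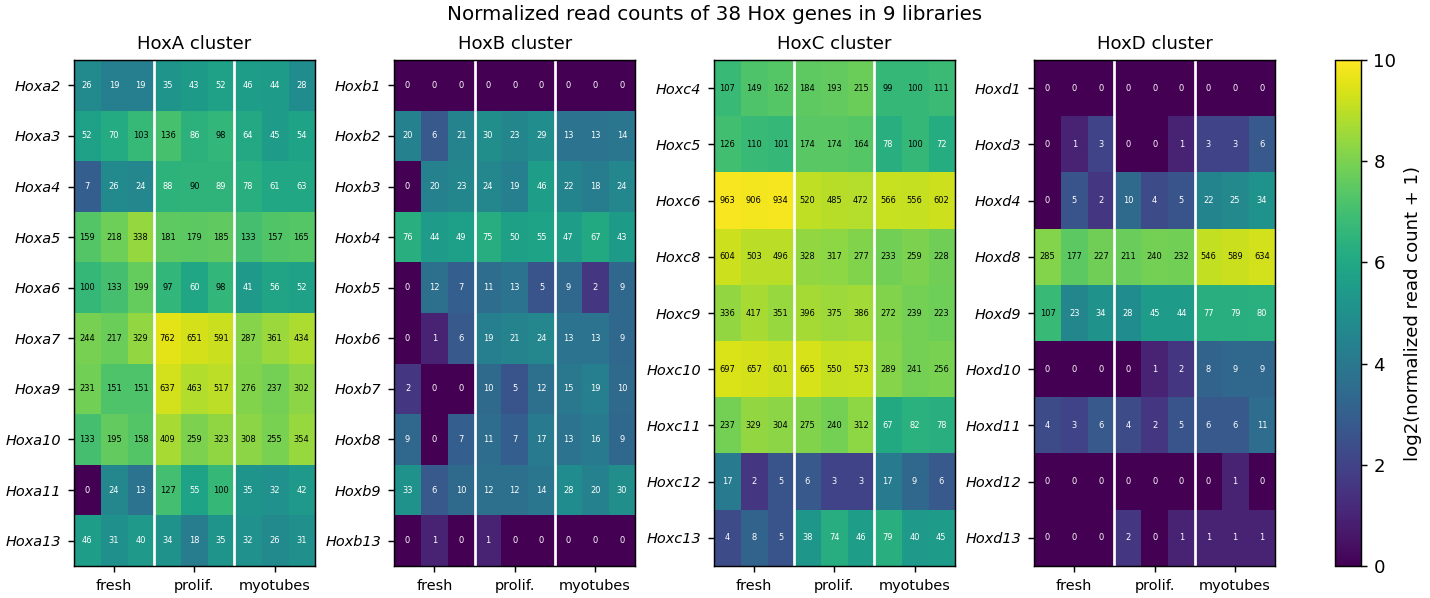
Normalized reads of 38 Hox genes, printed in each cell and coloured on the log2(normalized reads + 1) scale, by cluster (panels), gene (rows, head-ward end at the top) and library (columns, 3 per stage). HoxC and the middle of HoxA hold the high values, Hoxd8 and Hoxd9 are the only HoxD genes above 34 normalized reads, and Hoxb1 and Hoxd1 are at 0 in every library.

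Levels between genes were set side by side per kb of exon. In freshly isolated cells the highest were Hoxc6, a thoracic-level gene, at 388 ± 11.8 normalized reads per kb (SD, n = 3), and Hoxc10, a lumbar and hindlimb gene, at 341 ± 25.3. Hoxc8 followed at 189 ± 21.3, and its range overlapped that of Hoxa6 at 165 ± 57.7. In proliferating cells the order was led by Hoxc10 at 312 normalized reads per kb, then Hoxa7 at 232, Hoxc6 at 204 and Hoxc9 at 159. In myotubes Hoxc6 at 239 and Hoxd8 at 215 normalized reads per kb led, with Hoxc10 at 137 and Hoxa7 at 125 after them. Summed over its described genes, HoxC had 1334, 1331 and 1275 normalized reads per kb in the 3 freshly isolated libraries. It had 1128, 1039 and 1066 in the proliferating ones and 726, 684 and 686 in the myotubes. The 3 stages did not overlap on this scale, but the fall from freshly isolated to proliferating cells depended on the scaling. Taken per M of the library total, without division by exon length, HoxC had 118, 151 and 147 in freshly isolated cells. Proliferating cells had 146, 133 and 138 on that scale, which overlapped. Myotubes had 83.6, 83.6 and 78.1, below both. HoxA had 412, 492 and 662 normalized reads per kb in freshly isolated cells, 878, 679 and 767 in proliferating cells and 475, 489 and 556 in myotubes, so that proliferating cells were above both others. HoxD had 155, 77.9 and 101 normalized reads per kb in freshly isolated cells, 95.2, 111 and 110 in proliferating cells and 249, 268 and 289 in myotubes, highest in every myotube library. HoxB stayed between 31.2 and 74.2 normalized reads per kb in all 9 libraries. HoxC thus made up 66.1% of the summed Hox level in freshly isolated cells, 53.3% in proliferating cells and 45.5% in myotubes, while HoxD made up 5.61%, 5.23% and 17.5%. These sums describe the members and were not tested.

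**Figure D2:**
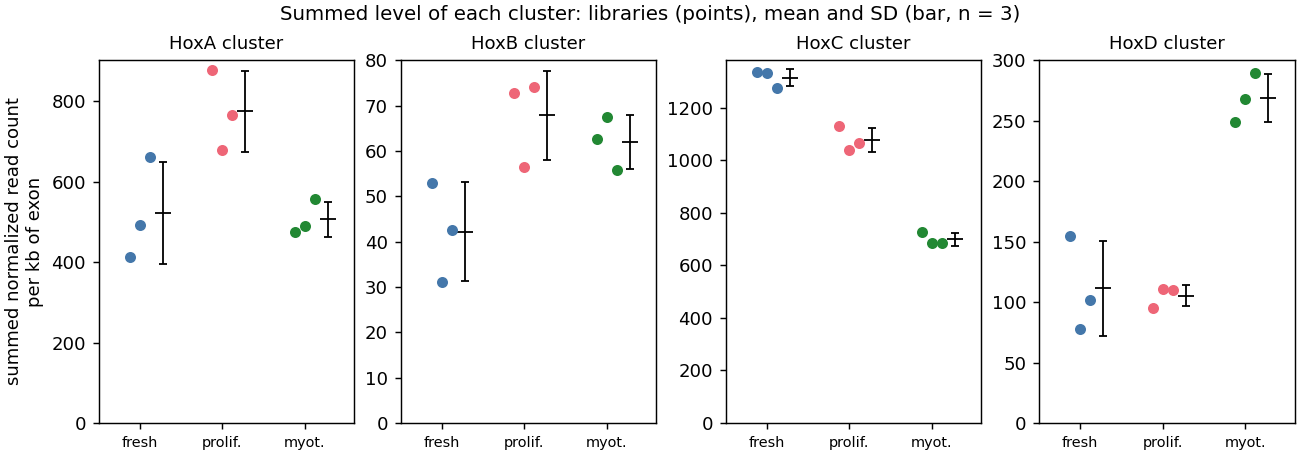
Summed normalized reads per kb of exon (y axis, from 0) for each Hox cluster in freshly isolated cells, proliferating cells and myotubes. Points are libraries and black bars the mean and SD of 3. HoxA is highest in proliferating cells, and HoxD is highest in myotubes at 249 to 289. HoxC is highest in freshly isolated cells and lowest in myotubes, without overlap on this scale. Taken per M of the library total, HoxC overlaps between freshly isolated and proliferating cells.

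Proliferating cells were set against freshly isolated cells to ask which Hox genes differ once satellite cells leave the muscle and divide in culture. In all, 11 Hox genes were called higher and 2 lower in proliferating cells, by limma with Benjamini-Hochberg adjusted p below 0.05 over all 17291 tested genes. Those called higher were 6 of 10 in HoxA (Hoxa2, Hoxa4, Hoxa7, Hoxa9, Hoxa10 and Hoxa11), 2 of 8 tested in HoxB (Hoxb6 and Hoxb7) and 3 of 8 in HoxC (Hoxc4, Hoxc5 and Hoxc13). Those called lower were Hoxc6 and Hoxc8. Of all tested genes 37.6% were called higher and 35.7% lower, so the 11 of 29 lies near the background and the 2 of 29 below it. Of the 11, Hoxb6, Hoxb7 and Hoxc13 passed the filter only through culture libraries. Under upper-quartile scaling 8 were higher and 4 lower. The median log2 change was 0.60 over the 29 Hox genes and 0.07 over all tested genes. Proliferating cells were above both other stages without overlap in 8 Hox genes, and 16.3% of all tested genes were. Freshly isolated cells were above both culture stages in 3, Hoxa6, Hoxc6 and Hoxc8, and 29.8% of all tested genes were.

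In the middle of HoxA the changes were made at high levels. Hoxa7, a thoracic-level gene, had 762, 651 and 591 normalized reads in proliferating cells, against 244, 217 and 329 in freshly isolated cells. All proliferating libraries were well above all freshly isolated ones, with a log2 change of 1.35 ± 0.20 (SE, limma adjusted p = 0.00012). Hoxa9, a gene studied in the activation of aged satellite cells, had 637, 463 and 517 normalized reads in proliferating cells, against 231, 151 and 151 in freshly isolated cells. This was a 3.06-fold difference on the log2(value + 1) scale (log2 1.61, limma adjusted p = 3.9e-05). Hoxa10, which suppresses ribs in the lumbar region, had 409, 259 and 323 normalized reads in proliferating cells, against 133, 195 and 158 in freshly isolated cells, and the groups did not overlap (log2 change 1.02, limma adjusted p = 0.0016). Hoxa7 shares 20.4% of its exon bases with the antisense gene Hoxaas3, whose values were 19, 24 and 25 in proliferating cells and 41, 24 and 27 in freshly isolated cells.

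The other called HoxA genes had low or middle levels. Hoxa4, which helps set cervical vertebrae, had 88, 90 and 89 normalized reads in proliferating cells, against 7, 26 and 24 in freshly isolated cells (log2 change 2.36 ± 0.43 SE, limma adjusted p = 0.00064). Hoxa11, which patterns the forearm and lower leg, had 127, 55 and 100 in proliferating cells, against 0, 24 and 13 in freshly isolated cells (log2 change 3.67 ± 0.98, limma adjusted p = 0.0062). Without freshly isolated library 1, where it was listed at 0, the log2 change was 2.26, and without library 2 it was 4.58. It shares 35.0% of its exon bases with the antisense Hoxa11os, at 69, 34 and 24 in proliferating cells and 48, 19 and 24 in freshly isolated cells. Hoxa2, which specifies the second pharyngeal arch, had 35, 43 and 52 in proliferating cells, against 26, 19 and 19 in freshly isolated cells (log2 change 0.99, limma adjusted p = 0.019), and the call was lost without proliferating library 2 (adjusted p = 0.050) or 3 (adjusted p = 0.074), and under upper-quartile scaling (adjusted p = 0.067). Hoxa3, Hoxa5, Hoxa6 and Hoxa13 were not called, with log2 changes of 0.53, −0.32, −0.73 and −0.46. Without freshly isolated library 1, Hoxa5 and Hoxa6 were called lower (log2 changes −0.58 and −0.96, adjusted p = 0.019 and 0.010), and Hoxa6 also under upper-quartile scaling (0.016) and with a pseudocount of 5 (0.048). Without freshly isolated library 3, Hoxa3 was called higher (adjusted p = 0.042).

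HoxB gave low values throughout. Hoxb6 had 19, 21 and 24 normalized reads in proliferating cells, against 0, 1 and 6 in freshly isolated cells (log2 change 3.21, limma adjusted p = 0.0010; 2.57 without freshly isolated library 1 and 3.98 without library 3). Hoxb7 had 10, 5 and 12 in proliferating cells, against 2, 0 and 0 in freshly isolated cells, where 2 is about 1 read (log2 change 2.72, limma adjusted p = 0.0013). Both genes were above their freshly isolated range in every proliferating library, and the size of the change depends on the pseudocount at these levels. Because both passed the filter only through culture libraries, this separation is no further support. Hoxb4, the highest HoxB gene and one used to expand blood stem cells, had 75, 50 and 55 in proliferating cells and 76, 44 and 49 in freshly isolated cells, and the groups overlapped. The other 5 tested HoxB genes, Hoxb2, Hoxb3, Hoxb5, Hoxb8 and Hoxb9, were not called. Their log2 changes were 0.93, 1.85, 1.09, 1.48 and −0.02 in the same order. Without freshly isolated library 1, Hoxb2 and Hoxb8 were called higher (limma adjusted p = 0.036 and 0.027). Without freshly isolated library 3, Hoxb3 was called higher (limma adjusted p = 0.0498).

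HoxC split. Hoxc6 had 520, 485 and 472 normalized reads in proliferating cells, against 963, 906 and 934 in freshly isolated cells, a difference far larger than the spread within either stage (log2 change −0.92 ± 0.09 SE, limma adjusted p = 8.1e-06). Hoxc8, which patterns the thoracic vertebrae, had 328, 317 and 277 in proliferating cells, against 604, 503 and 496 in freshly isolated cells (log2 change −0.79, limma adjusted p = 0.00034). Hoxc13, known for hair and nail, moved the other way, with 38, 74 and 46 in proliferating cells against 4, 8 and 5 in freshly isolated cells (log2 change 3.00, limma adjusted p = 8.3e-05). The neighbouring Hoxc4 and Hoxc5 were higher by less. Hoxc4 had 184, 193 and 215 in proliferating cells, against 107, 149 and 162 in freshly isolated cells (log2 change 0.52, limma adjusted p = 0.035). Hoxc5 had 174, 174 and 164 in proliferating cells, against 126, 110 and 101 in freshly isolated cells (log2 change 0.60, limma adjusted p = 0.017). Both groups of values were separate, but the Hoxc4 call was lost without freshly isolated library 1 (adjusted p = 0.070), without any 1 of the proliferating libraries (0.052, 0.074 and 0.11) or without myotube library 1 (0.052), and the Hoxc5 call without proliferating library 2 (0.052). Upper-quartile scaling, which shifts the median of all genes by −0.26 here, also ended both calls (adjusted p = 0.28 for Hoxc4 and 0.15 for Hoxc5). Hoxc9, Hoxc10 and Hoxc11 were not called, with log2 changes of 0.07, −0.13 and −0.07. Under upper-quartile scaling Hoxc10 was called lower (log2 change −0.40, limma adjusted p = 0.017). The 3 tested HoxD genes, Hoxd4, Hoxd8 and Hoxd9, were not called, and none had an unadjusted p under 0.05.

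Markers of other cells moved with this comparison. Of 7 fibro-adipogenic and fibroblast markers 6 were tested, and in proliferating cells 5 were lower and 1 higher. Their summed level was 23 to 34 normalized reads in proliferating cells, with Dpt, Lum and Cxcl14 at 0 in every library, against 8524 to 9608 in freshly isolated cells. Pdgfra, the surface receptor by which such cells are sorted, was at 19, 13 and 22 in proliferating cells and at 4, 5 and 9 in freshly isolated cells. The summed leukocyte markers were at 65 to 89 in proliferating cells and 662 to 689 in freshly isolated cells. Most of that sum was Cd68, a lysosomal protein gene, at 67, 66 and 50 in proliferating cells and 549, 629 and 621 in freshly isolated cells, while Adgre1 was at 0 in both stages and Ptprc, the CD45 gene, at 0, 0 and 1 in proliferating cells and 0, 0 and 14 in freshly isolated cells. The endothelial markers were at 90 to 123 in proliferating cells and 127 to 244 in freshly isolated cells. The summed Schwann cell markers were at 89 to 95 in proliferating cells and 197 to 303 in freshly isolated cells. Sums of 2 other lists lay the other way. Tenocyte markers summed to 1595 to 1847 in proliferating cells and 265 to 386 in freshly isolated cells, nearly all of it Scx in proliferating cells, with Tnmd, a defining tendon gene, at 0 there. Pericyte or smooth muscle markers summed to 8642 to 20023 in proliferating cells and 2299 to 3717 in freshly isolated cells, mostly Acta2, with Myh11, the smooth muscle myosin, at 3 to 16 in proliferating cells and 10 to 15 in freshly isolated cells. The part of other cells in the Hox values was not tested, and in these bulk samples fewer cells of a type and less RNA per cell cannot be told apart. Because each stage was collected and cultured in its own way, stage and handling cannot be told apart either.

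**Figure D3:**
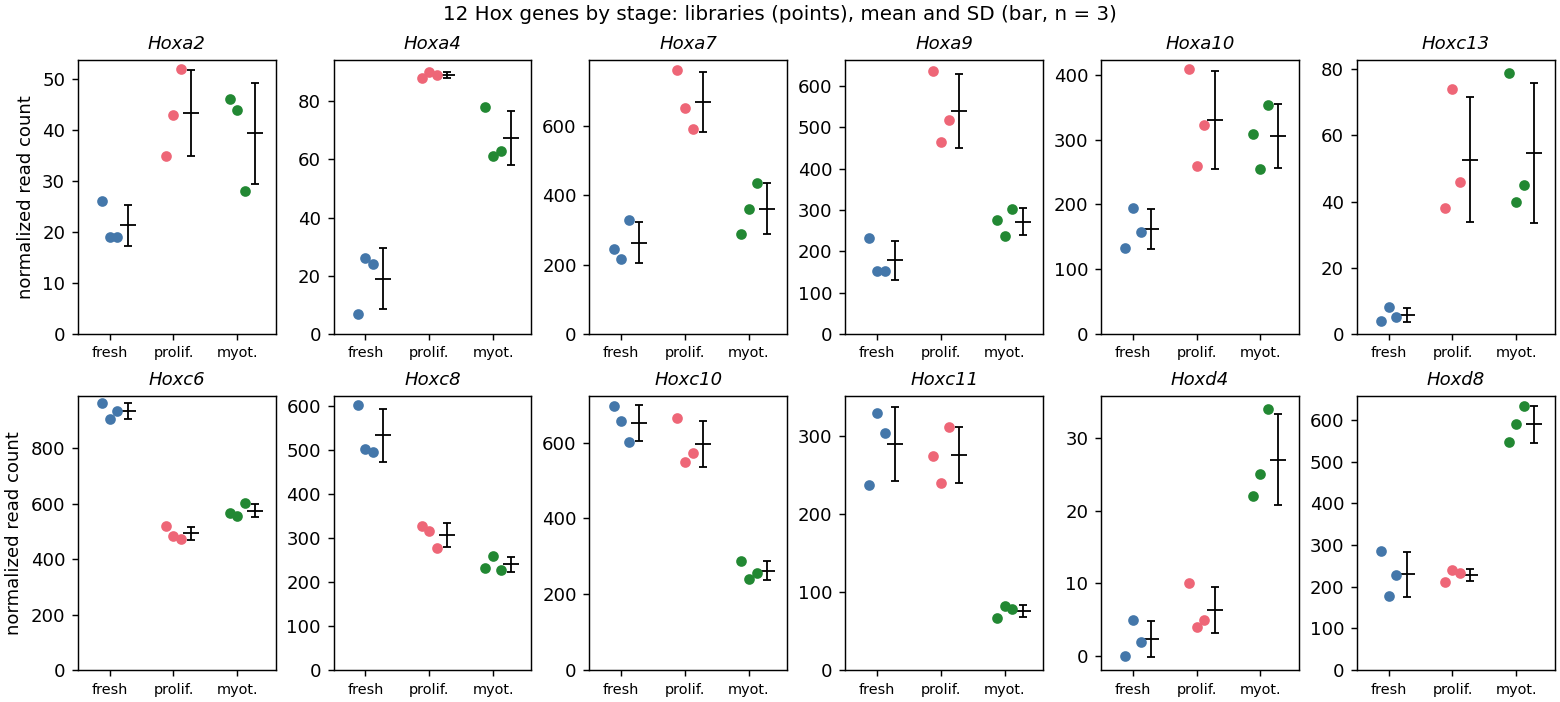
Normalized reads (y axes, each gene on its own scale) of 12 Hox genes in freshly isolated cells, proliferating cells and myotubes. Points are libraries and black bars the mean and SD of 3. Hoxa7 and Hoxa9 peak in proliferating cells, Hoxc6 and Hoxc8 are highest in freshly isolated cells, Hoxc10 and Hoxc11 are lowest in myotubes, and Hoxd4 and Hoxd8 are highest in myotubes.

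Myotubes were then set against proliferating cells, the step in which dividing cells fuse and differentiate. In this step 9 Hox genes were called lower and 2 higher in myotubes, by limma with Benjamini-Hochberg adjustment. Those called lower were Hoxa3, Hoxa7 and Hoxa9 and 6 of 8 tested HoxC genes (Hoxc4, Hoxc5, Hoxc8, Hoxc9, Hoxc10 and Hoxc11), and those called higher were Hoxd4 and Hoxd8. Of all tested genes 25.5% were lower and 28.6% higher. The median log2 change was −0.37 over the 29 Hox genes and 0.04 over all tested genes. Of the 8 tested HoxB genes 0 were called by limma, and 0 had an unadjusted p under 0.05. With only the 2 stages fitted, Hoxb2 and Hoxb6 were called lower (adjusted p = 0.0069 and 0.024) and Hoxb9 higher (adjusted p = 0.012). Other-cell markers moved in this step too. Pericyte or smooth muscle markers summed to 60982 to 62179 in myotubes and 8642 to 20023 in proliferating cells, nearly all of it Acta2 in myotubes, with Myh11 at 7 to 14 there. Tenocyte markers summed to 3188 to 4163 in myotubes and 1595 to 1847 in proliferating cells, nearly all of it Scx, with Tnmd at 0 in both. Fibroblast markers summed to 199 to 501 in myotubes, mostly Col15a1, and 23 to 34 in proliferating cells. Leukocyte markers summed to 246 to 260 in myotubes, of which Itgam made up 213 to 229, and 65 to 89 in proliferating cells. The endothelial sums were 103 to 133 in myotubes and 90 to 123 in proliferating cells, and the Schwann sums 59 to 98 in myotubes and 89 to 95 in proliferating cells. Their part in the Hox values was not tested.

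Hoxc11 and Hoxc10 had the largest falls among the HoxC genes. Hoxc11, a hindlimb-level gene, had 67, 82 and 78 normalized reads in myotubes, against 275, 240 and 312 in proliferating cells. The myotube values lay well below, with a log2 change of −1.85 ± 0.18 (SE, limma adjusted p = 1.9e-05), a 3.60-fold difference. Hoxc10 had 289, 241 and 256 in myotubes, against 665, 550 and 573 in proliferating cells (log2 change −1.18, limma adjusted p = 2.6e-05). Hoxc9 had 272, 239 and 223 in myotubes, against 396, 375 and 386 in proliferating cells (log2 change −0.66, limma adjusted p = 0.0020). At the far end of the cluster Hoxc13 had 79, 40 and 45 in myotubes and 38, 74 and 46 in proliferating cells and was not called. Hoxc8 had 233, 259 and 228 in myotubes, against 328, 317 and 277 in proliferating cells (log2 change −0.35, limma adjusted p = 0.045), and this call was lost without freshly isolated library 3 (0.050), proliferating library 1 (0.13) or 2 (0.12), or myotube library 1 (0.12) or 3 (0.13), with no filter (0.079) and with no mean-variance trend (0.053). From Hoxc8 to Hoxc11 the log2 changes lay in the order of the genes along the cluster, and the differences between genes were not tested. The other tested HoxC genes did not follow that order, with −0.93 for Hoxc4, −1.04 for Hoxc5, 0.22 for Hoxc6 and 0.04 for Hoxc13.

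At the head-ward end of the cluster, Hoxc4 had 99, 100 and 111 normalized reads in myotubes, against 184, 193 and 215 in proliferating cells (log2 change −0.93, limma adjusted p = 0.0026). Hoxc5 had 78, 100 and 72 in myotubes, against 174, 174 and 164 in proliferating cells (log2 change −1.04, limma adjusted p = 0.0012). Hoxc6 had 566, 556 and 602 in myotubes, against 520, 485 and 472 in proliferating cells, non-overlapping but not called (log2 change 0.22, limma adjusted p = 0.066). It was called higher when only the 2 stages were fitted (adjusted p = 0.031) or without freshly isolated library 1 (adjusted p = 0.038).

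In HoxA, Hoxa7 had 287, 361 and 434 normalized reads in myotubes, against 762, 651 and 591 in proliferating cells (log2 change −0.90, limma adjusted p = 0.0032). Hoxa9 had 276, 237 and 302 in myotubes, against 637, 463 and 517 in proliferating cells (log2 change −0.98, limma adjusted p = 0.0021). Hoxa7, Hoxa9, Hoxc4 and Hoxc5 were the 4 Hox genes called both higher in proliferating than in freshly isolated cells and lower in myotubes than in proliferating cells, and the 2 comparisons share the proliferating libraries. Over all tested genes 37.6% were higher in the first and 25.5% lower in the second, and the share meeting both calls was not counted. Upper-quartile scaling, among other settings, ended the Hoxc4 and Hoxc5 calls of the first comparison. Hoxa3, which shapes the third pharyngeal arch and its thymus, had 64, 45 and 54 in myotubes, against 136, 86 and 98 in proliferating cells (log2 change −0.95, limma adjusted p = 0.024), and the call was lost without proliferating library 1 (0.096) or 3 (0.052), or myotube library 2 (0.082) or 3 (0.061). Hoxa10 had 308, 255 and 354 in myotubes and 409, 259 and 323 in proliferating cells, which overlapped. Hoxa11 had 35, 32 and 42 in myotubes and 127, 55 and 100 in proliferating cells, without overlap and not called (log2 change −1.27, limma adjusted p = 0.30). Without freshly isolated library 1 it was called lower (adjusted p = 0.0079).

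HoxD held both genes called higher in this step. Hoxd8, a trunk gene, had 546, 589 and 634 normalized reads in myotubes, against 211, 240 and 232 in proliferating cells. No myotube library came near the proliferating range, with a log2 change of 1.37 and a 2.58-fold difference (limma adjusted p = 9.0e-05). Hoxd4, used in the hindbrain and neck, had 22, 25 and 34 in myotubes, against 10, 4 and 5 in proliferating cells (log2 change 2.00, limma adjusted p = 0.023). The Hoxd4 call was lost without proliferating library 2 (0.077) or 3 (0.067), or myotube library 2 (0.054) or 3 (0.079), with a pseudocount of 0.5 (0.053) and with no filter (0.054). Hoxd9, a gene of the upper limb segment and lumbar spine, had 77, 79 and 80 in myotubes, against 28, 45 and 44 in proliferating cells (log2 change 1.02, limma adjusted p = 0.10). It was called higher when only these 2 stages were fitted (adjusted p = 0.0054) or without freshly isolated library 1 (adjusted p = 0.0057), in which it stood at 107 normalized reads. Hoxd10, a hindlimb gene below the filter, had 0 in all 3 freshly isolated libraries, 0, 1 and 2 normalized reads in proliferating cells and 8, 9 and 9 in myotubes. In a fit with no filter, over 31904 genes, its log2 change was 2.41 against proliferating cells (limma adjusted p = 0.0035) and that of Hoxd3 was 1.94 (adjusted p = 0.030). Hoxd3 had 3, 3 and 6 in myotubes, against 0, 0 and 1 in proliferating cells.

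Counts of Hoxd4 and Hoxd3 are uncertain because other genes use the same bases. Hoxd4 shares 39.1% and Hoxd3 53.1% of its exon bases with Gm28230 on the same strand, which had 6, 9 and 8 normalized reads in myotubes, against 1 in each proliferating library. Hoxd3os1, an antisense RNA over both genes, had 97, 99 and 149 in myotubes, against 14, 10 and 9 in proliferating cells (log2 change 3.27, limma adjusted p = 0.013). Whether the counting used strand is not stated, so reads of an antisense RNA and of the gene opposite it cannot be told apart. Hoxd8 and Hoxd9 share no exon bases with another gene. Mtx2, the mitochondrial import gene next to the Hoxd1 end of the cluster, had 68, 76 and 78 in freshly isolated cells, 617, 632 and 605 in proliferating cells and 1531, 1336 and 1575 in myotubes, the last step being a log2 change of 1.26 (limma adjusted p = 1.1e-05). Evx2, next to Hoxd13 on the other side, had at most 2 normalized reads in any library.

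**Figure D4:**
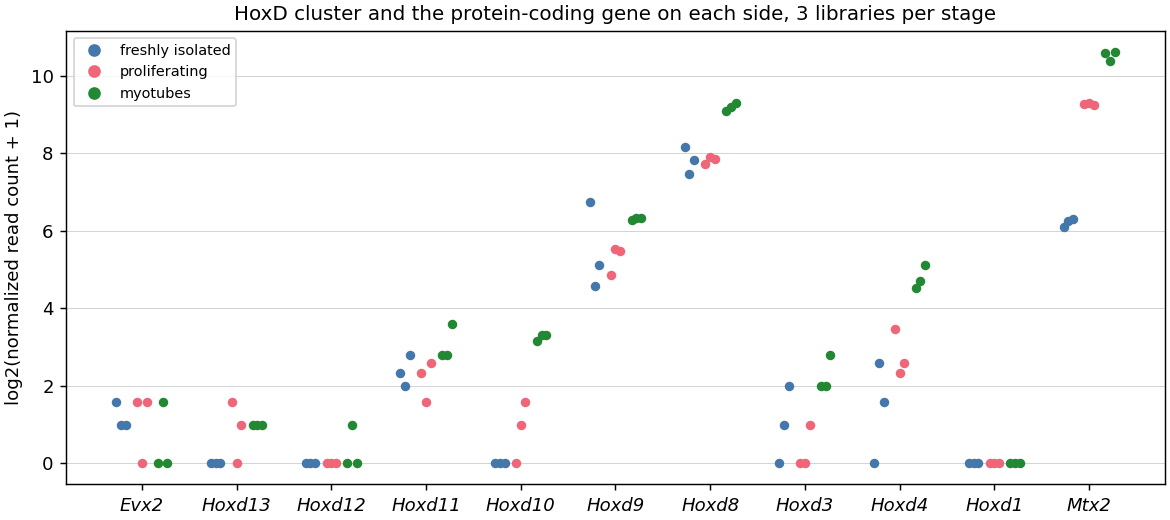
Log2(normalized reads + 1) of the HoxD genes and of the protein-coding gene on each side, with 3 libraries for each of freshly isolated cells, proliferating cells and myotubes. Genes are ordered by their lowest annotated position, which is 74711927 for Hoxd3 and 74711929 for Hoxd4, whose annotated spans overlap. Hoxd8, Hoxd4, Hoxd10 and Mtx2 are highest in myotubes without overlap, while Evx2, Hoxd13, Hoxd12 and Hoxd1 stay between 0 and 2 normalized reads.

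Myotubes against freshly isolated cells gives the sum of both steps, and it shares its libraries with both earlier comparisons. There 10 Hox genes were called higher in myotubes (Hoxa2, Hoxa4, Hoxa9, Hoxa10, Hoxa11, Hoxb6, Hoxb7, Hoxc13, Hoxd4 and Hoxd8) and 6 lower (Hoxa6, Hoxc6, Hoxc8, Hoxc9, Hoxc10 and Hoxc11), by limma with Benjamini-Hochberg adjustment. Of all tested genes 40.2% were higher and 37.3% lower, so the share of Hox genes called higher, 10 of 29, was not above the background. Of the 10, Hoxb6, Hoxb7, Hoxc13 and Hoxd4 passed the filter only through culture libraries. Under upper-quartile scaling 6 were higher and 10 lower. The median log2 change was 0.51 over the 29 Hox genes and 0.10 over all tested genes. In HoxC 5 of 8 tested genes were lower, and in HoxA 5 of 10 were higher.

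Of these, 8 genes were called higher in both culture stages than in freshly isolated cells, and 2, Hoxc6 and Hoxc8, lower in both. Of all tested genes 37.6% were higher and 35.7% lower in proliferating cells, and 40.2% and 37.3% in myotubes. Both comparisons share the freshly isolated libraries. The share of all tested genes called in both was not counted, so these joint counts have no background beside them. Hoxc13 had 79, 40 and 45 normalized reads in myotubes, against 4, 8 and 5 in freshly isolated cells (log2 change 3.04, limma adjusted p = 6.3e-05). Hoxa4 had 78, 61 and 63 in myotubes, against 7, 26 and 24 in freshly isolated cells (log2 change 1.95, limma adjusted p = 0.0020). Hoxb7 had 15, 19 and 10 in myotubes, against 2, 0 and 0 in freshly isolated cells (log2 change 3.40, limma adjusted p = 0.00025). Hoxb6 had 13, 13 and 9 in myotubes, against 0, 1 and 6 in freshly isolated cells (log2 change 2.38, limma adjusted p = 0.0058; 1.74 without freshly isolated library 1 and 3.15 without library 3). In these genes every myotube library was above every freshly isolated one. For Hoxb6, Hoxb7 and Hoxc13 this is no further support, since they passed the filter only through culture libraries. Hoxb8 and Hoxb9 were not called (log2 changes 1.63 and 0.95, limma adjusted p = 0.084 and 0.13). Without freshly isolated library 1 both were called higher (limma adjusted p = 0.018 and 0.0019).

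Hoxa10 had 308, 255 and 354 normalized reads in myotubes, against 133, 195 and 158 in freshly isolated cells (log2 change 0.92, limma adjusted p = 0.0027). The calls of 3 other HoxA genes were less firm. Hoxa9 had 276, 237 and 302 in myotubes, against 231, 151 and 151 in freshly isolated cells (log2 change 0.63, limma adjusted p = 0.015), and the call was lost without freshly isolated library 2 (0.051) or 3 (0.053) or myotube library 3 (0.056). Hoxa2 had 46, 44 and 28 in myotubes, against 26, 19 and 19 in freshly isolated cells (log2 change 0.84, limma adjusted p = 0.038), and the call was lost without freshly isolated library 2 (0.081) or 3 (0.083), proliferating library 2 (0.054) or myotube library 1 (0.13) or 2 (0.11), with no filter (0.059) and with only the 2 stages fitted (0.067). Hoxa11 had 35, 32 and 42 in myotubes, against 0, 24 and 13 in freshly isolated cells (log2 change 2.40, limma adjusted p = 0.044), and the call was lost without any 1 of the proliferating or myotube libraries (adjusted p from 0.056 to 0.10), while the log2 change was 0.99 without freshly isolated library 1 and 3.31 without library 2. Under upper-quartile scaling, which lowers the median of all genes by 0.43 in this comparison, Hoxa2, Hoxa9, Hoxa10 and Hoxa11 were not called, with adjusted p of 0.27, 0.39, 0.071 and 0.091.

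Among the genes called lower, Hoxc11 had 67, 82 and 78 normalized reads in myotubes, against 237, 329 and 304 in freshly isolated cells (log2 change −1.92, limma adjusted p = 4.8e-06). Hoxc10 had 289, 241 and 256 in myotubes, against 697, 657 and 601 in freshly isolated cells (log2 change −1.31, limma adjusted p = 4.2e-06). Hoxc8 had 233, 259 and 228 in myotubes, against 604, 503 and 496 in freshly isolated cells (log2 change −1.15, limma adjusted p = 2.0e-05). Hoxc6 had 566, 556 and 602 in myotubes, against 963, 906 and 934 in freshly isolated cells (log2 change −0.70, limma adjusted p = 5.4e-05). Hoxc9 had 272, 239 and 223 in myotubes, against 336, 417 and 351 in freshly isolated cells (log2 change −0.59, limma adjusted p = 0.0023). Hoxa6, of a group that promotes ribs, had 41, 56 and 52 in myotubes, against 100, 133 and 199 in freshly isolated cells (log2 change −1.47, limma adjusted p = 0.0014). In each of these genes the myotube libraries lay below all freshly isolated ones. The 5 HoxC genes with the highest levels per kb in freshly isolated cells were the 5 HoxC genes called lower in myotubes. The freshly isolated values enter both that ranking and the comparison, so the match is not a separate result. Fibroblast markers summed to 199 to 501 normalized reads in myotubes, against 8524 to 9608 in freshly isolated cells, with Cxcl14 at 0 in every myotube library. Leukocyte sums were 246 to 260 in myotubes and 662 to 689 in freshly isolated cells, endothelial sums 103 to 133 in myotubes and 127 to 244 in freshly isolated cells, and Schwann sums 59 to 98 in myotubes and 197 to 303 in freshly isolated cells. Larger in myotubes were the sums of the pericyte or smooth muscle markers, at 60982 to 62179 in myotubes and 2299 to 3717 in freshly isolated cells, and of the tenocyte markers, at 3188 to 4163 in myotubes and 265 to 386 in freshly isolated cells. The part of these cells in the Hox differences was not tested.

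In HoxD, Hoxd8 had 546, 589 and 634 normalized reads in myotubes, against 285, 177 and 227 in freshly isolated cells (log2 change 1.38, limma adjusted p = 3.6e-05). Hoxd4 had 22, 25 and 34 in myotubes, against 0, 5 and 2 in freshly isolated cells (log2 change 3.39, limma adjusted p = 0.00065; 2.70 without freshly isolated library 1 and 3.99 without library 2). Both were above both other stages in every myotube library, which 24.8% of all tested genes were. Hoxd4 passed the filter only through culture libraries, so its separation from freshly isolated cells is no further support. Hoxd9 had 77, 79 and 80 in myotubes, against 107, 23 and 34 in freshly isolated cells, and was not called (log2 change 0.83, limma adjusted p = 0.15). Without freshly isolated library 1, the one at 107, it was called higher (log2 change 1.46, adjusted p = 0.00087).

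**Figure D5:**
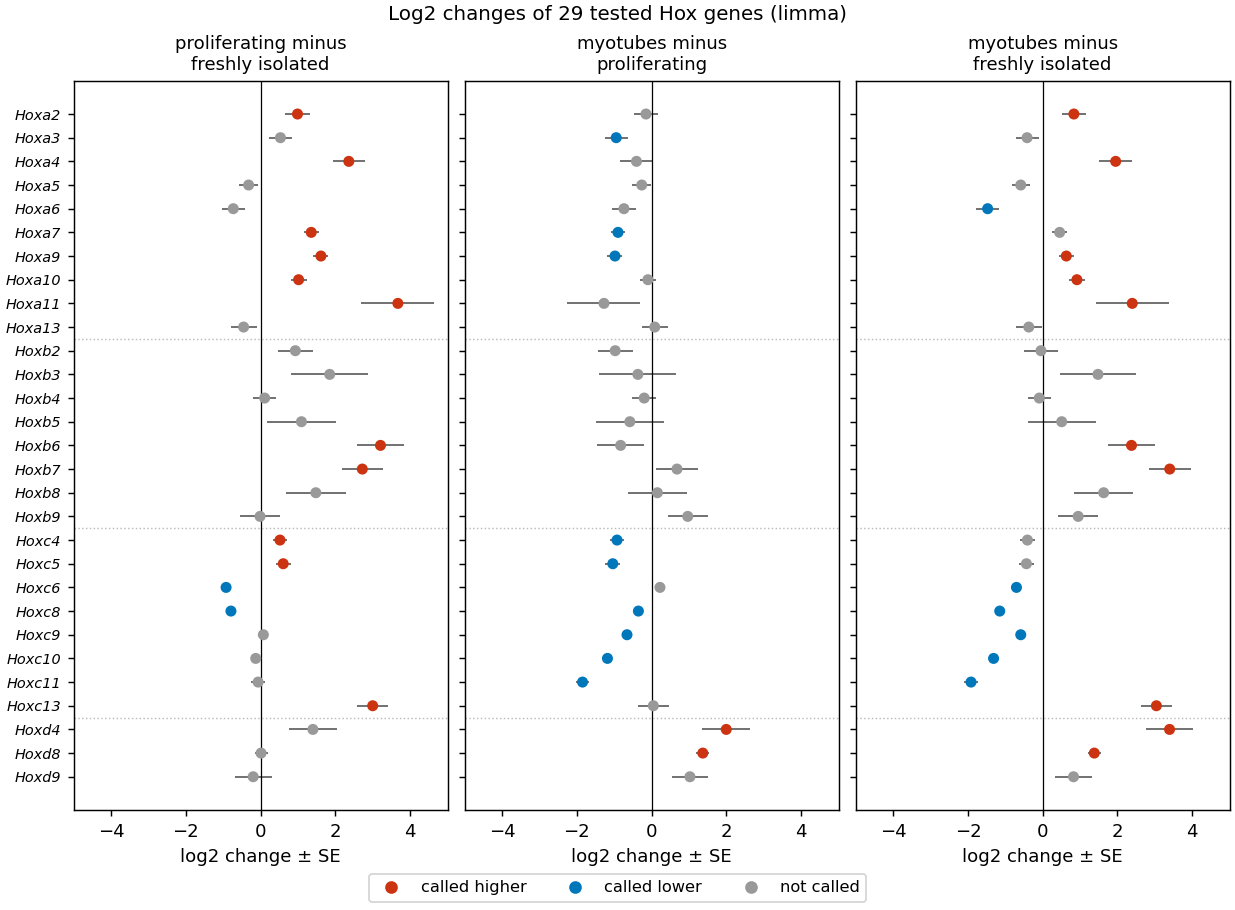
Log2 changes with their SE (x axis) of the 29 tested Hox genes (rows, by cluster, dotted lines between clusters) in the 3 comparisons, from 1 limma fit of 9 libraries. Red points were called higher, blue lower and grey not called. In the left panel 7 of 10 HoxA points lie to the right of 0 (6 called higher) and 3 to the left, in the middle panel 6 of 8 HoxC points lie to the left (all 6 called lower), and Hoxd4 and Hoxd8 are the only red points there.

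The genes were also read by position, as groups 1 to 3, 4 to 8 and 9 to 13. In proliferating against freshly isolated cells 1 of 4, 6 of 15 and 4 of 10 tested genes were called higher and 0, 2 and 0 lower, beside 37.6% higher and 35.7% lower over all tested genes. In myotubes against proliferating cells 1, 4 and 4 were lower and 0, 2 and 0 higher, beside 25.5% lower and 28.6% higher over all tested genes. The shares called higher in proliferating cells in groups 4 to 8 and 9 to 13 lie near the background. Sharing of exon bases was common. Of the 29 tested genes 12 share bases with another gene, and of the 17 that do not, 5 were higher and 2 lower in proliferating cells than in freshly isolated ones, 1 higher and 4 lower in myotubes than in proliferating cells, and 5 higher and 5 lower in myotubes than in freshly isolated cells (40.2% and 37.3% over all tested genes). Of the 29 tested genes 9 were called in none of the 3 comparisons, and that share was not counted over all tested genes. Hoxa5, a gene of lung and sternum, was the most abundant of these, with 159, 218 and 338 normalized reads in freshly isolated cells, 181, 179 and 185 in proliferating cells and 133, 157 and 165 in myotubes. Its log2 change in myotubes against freshly isolated cells was −0.59 (limma adjusted p = 0.051). It was called lower there under other settings, among them without freshly isolated library 1 (adjusted p = 0.0021) and upper-quartile scaling (adjusted p = 0.0034).

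Other genes inside the clusters were mostly low. Of 46 non-Hox genes between the first and last Hox gene of a cluster, 12 passed the filter, as 17291 of all 45706 genes did, and 17 were listed at 0 in every library. The 7 microRNA genes there had at most 13 normalized reads, and a count over a precursor does not measure the mature microRNA. Hotair, the HoxC RNA that lies between Hoxc11 and Hoxc12 and is studied as a partner of Polycomb, had 39, 146 and 141 normalized reads in freshly isolated cells, 26, 36 and 47 in proliferating cells and 39, 26 and 39 in myotubes. It was called lower in proliferating cells (log2 change −1.37, limma adjusted p = 0.028) and in myotubes (log2 change −1.42, adjusted p = 0.022), although freshly isolated library 1 overlapped both. The call in proliferating cells was lost without freshly isolated library 2 or 3 or proliferating library 1 or 2 (adjusted p from 0.062 to 0.10), and that in myotubes without freshly isolated library 2 or 3 or myotube library 2 (adjusted p from 0.078 to 0.086). Without freshly isolated library 1 the Hotair log2 changes were −1.99 in proliferating cells and −2.04 in myotubes. Hotairm1, an antisense RNA of HoxA, had 22, 7 and 10 in freshly isolated cells, 38, 33 and 43 in proliferating cells and 37, 36 and 41 in myotubes, and was higher in both culture stages than in freshly isolated cells (log2 changes 1.62 and 1.62, limma adjusted p = 0.0045 and 0.0040).

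Among the other HoxA RNAs, Hoxaas2 had 135, 114 and 111 normalized reads in myotubes, against 2, 27 and 49 in freshly isolated cells (log2 change 2.90, limma adjusted p = 0.0087). Its log2 change was 1.69 without freshly isolated library 1 and 3.72 without freshly isolated library 3. Hoxa11os had 11, 9 and 8 in myotubes, against 69, 34 and 24 in proliferating cells (log2 change −1.94, limma adjusted p = 0.0060). Beside the clusters, Skap2, an adaptor gene at the head-ward end of HoxA, had 200, 195 and 193 in freshly isolated cells, 294, 320 and 400 in proliferating cells and 690, 795 and 808 in myotubes. It was higher in myotubes than in proliferating cells (log2 change 1.18, limma adjusted p = 5.5e-05). Evx1, at the Hoxa13 end, had at most 7. In HoxB the antisense Hoxb3os, over 52.9% of the exon bases of Hoxb3 and 27.3% of those of Hoxb2, had 5 to 21 normalized reads and was not called.

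Of the TALE partners of the Hox proteins 8 were read, and all 8 passed the filter. In proliferating against freshly isolated cells 2 were higher and 2 lower, in myotubes against proliferating cells none was higher and 3 lower, and in myotubes against freshly isolated cells 3 were higher and 5 lower. Over all tested genes 37.6% were higher and 35.7% lower in the first comparison, 28.6% and 25.5% in the second and 40.2% and 37.3% in the last. The TALE median log2 changes were 0.32, −0.27 and −0.79, beside 0.07, 0.04 and 0.10 over all tested genes. Meis2 had 279, 311 and 272 in myotubes, against 595, 754 and 628 in proliferating cells (log2 change −1.19, limma adjusted p = 0.00062). Pknox2 had 1979, 2622 and 2531 in proliferating cells, against 741, 709 and 817 in freshly isolated cells (log2 change 1.64, limma adjusted p = 2.2e-06), whereas Pknox1 had 1088, 1323 and 1334 in proliferating cells, against 2279, 3947 and 2985 in freshly isolated cells (log2 change −1.27, limma adjusted p = 0.00012).

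Genes that mark where a limb muscle came from were read beside the Hox values. Tbx4, the hindlimb gene, had 187, 204 and 293 normalized reads in freshly isolated cells, 117, 165 and 132 in proliferating cells and 176, 204 and 198 in myotubes. It was lower in proliferating cells than in freshly isolated ones (log2 change −0.71, limma adjusted p = 0.011). Tbx5, the forelimb gene, had at most 1 in any library. Pitx1, which sets hindlimb identity upstream of Tbx4, had at most 11. Lbx1, which marks migrating limb muscle precursors, had 511, 456 and 571 in myotubes, against 811, 726 and 808 in proliferating cells (log2 change −0.61, limma adjusted p = 0.010). Tbx15, a gene of fast muscle fibres, had 3257, 3091 and 3504 in myotubes, against 453, 677 and 642 in proliferating cells (log2 change 2.49, limma adjusted p = 1.5e-06). Of the head muscle list 5 of 7 genes passed the filter, with Tcf21 at most 4 in any library and Msc at 18, 14 and 4 in proliferating cells, against 623, 691 and 727 in freshly isolated cells (log2 change −5.92, limma adjusted p = 9.0e-07), a log2 change of −5.33 without proliferating library 3.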

How the data were processed

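The deposited file holds, for each gene and library, a score made by the authors: a read count scaled to make libraries comparable, then rounded. No scaling method is named in the sources used here. Per the submitters' processing notes, STAR 2.4.0a aligned the reads, the build was mm10 (GRCm38), and featureCounts 1.4.5-p1 of Subread counted them. Per the labels' protocols, RiboGone removed ribosomal RNA before a SMARTer Stranded Total RNA library preparation. Whether strand was used in counting is not stated. The freshly isolated libraries are the columns whose prefix, Q, remained once the other prefixes had been matched to their stages.

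Genes with at least 10 in at least 3 of 9 libraries (17291) were tested on log2(value + 1) with limma 3.58.1 in R 4.3.3, 1 model of 3 stages with a mean-variance trend and Benjamini-Hochberg adjustment. Count models, foreseen if the values were unscaled, were not used. Fold changes are on this scale: the added 1 shrinks those of low genes, while a mean of logs gives a library near 0 much weight, so for low genes they can lie below or above the ratio of stage means. The script was tested on simulated data. Positions, exon lengths and overlaps come from GENCODE vM21 and promoters from RefSeq (GRCm38.p6). The Hox members and the gene lists were chosen with earlier results of these data known. Of the 39 Hox genes 1 is not reported here, nor is 1 of the listed cofactors. Members were to be described with values where they pass the filter, all cofactor, limb and head muscle genes could be named, and up to 5 genes of each other list with the largest called change. The lists covered TALE cofactors, limb and head muscle identity, trithorax, Polycomb, retinoic acid and Cdx, Hox non-coding RNAs and markers of 8 cell types. The p-values measure the spread between 3 samples per stage, as 1 estimate shared by all 3 stages and drawn towards genes of similar level. A library of the stage not compared therefore also affects them. The number of reads behind each low value limits its precision, and reads without molecular identifiers cover counting error only. The libraries' numbers did not pair them. The 19 alternatives covered pseudocount, filter, scaling, trend, stages fitted, libraries left out and the replicate number.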

Additional observations from a re-analysis of the deposited data

How the results depend on the processing

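Of 1629 values of single Hox genes under the 19 alternatives no called change reversed, 57 calls were lost and 56 gained. Called under every alternative were 10 of 13 genes in proliferating against freshly isolated cells, 8 of 11 in myotubes against proliferating cells and 12 of 16 in myotubes against freshly isolated cells. Upper-quartile scaling moved the median of all genes by −0.26, −0.15 and −0.43 in the 3 comparisons and gave 4 lower in proliferating against freshly isolated cells, and 6 higher and 10 lower in myotubes against freshly isolated cells. For Hox genes higher in myotubes than in proliferating cells, main count 2, a pseudocount of 0.5 gave 1, a filter of at least 30 gave 1, fitting only the 2 stages gave 5, and leaving out both libraries that stood apart gave 4. Leaving out both of those libraries also gave 4 lower in proliferating cells than in freshly isolated ones. The cause of these moves was not tested. With 1 library left out at a time, the counts higher and lower ranged over 8 to 13 and 2 to 4 in proliferating against freshly isolated cells, 1 to 5 and 7 to 11 in myotubes against proliferating cells, and 8 to 13 and 6 to 9 in myotubes against freshly isolated cells. The replicate numbers did not pair the libraries, since deviations from the stage mean correlated between −0.0338 and 0.027 for the same number and between −0.0575 and 0.0585 for different numbers. With the replicate block the counts were 11 and 2, 2 and 8, and 9 and 7, and the Hoxa2 and Hoxc8 calls of adjusted p 0.038 and 0.045 were lost while Hoxa5 was called lower in myotubes than in freshly isolated cells (adjusted p = 0.038). A pseudocount of 5 made the log2 changes of Hoxa11, Hoxb6, Hoxb7, Hoxc13 and Hoxd4 against freshly isolated cells smaller, for Hoxb7 in myotubes 1.79 in place of 3.40. Among the named genes outside the Hox families no called change reversed, and the Hotair call in proliferating cells was also lost with only the 2 stages fitted (adjusted p = 0.055). A pseudocount of 5 gave log2 changes of −7.31 for Aldh1a1 and −4.74 for Cyp26a1 in proliferating against freshly isolated cells. Low genes are limited by depth, since 1 read was worth up to 2.18 normalized reads.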

Other observations

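Genes of the complexes known to hold Hox genes on or off were read by list. Over all tested genes 37.6% were higher and 35.7% lower in proliferating cells than in freshly isolated ones, and 28.6% were higher and 25.5% lower in myotubes than in proliferating cells. The Polycomb counts lie near that background in proliferating cells. Of 14 trithorax and COMPASS genes 7 were higher and 7 lower in proliferating cells than in freshly isolated ones, and none was higher and 12 lower in myotubes than in proliferating cells, by limma with Benjamini-Hochberg adjustment, with median log2 changes of 0.07 and −1.09. Kmt2a, the MLL1 methyltransferase gene, had 12829, 11485 and 11950 normalized reads in freshly isolated cells, 5569, 4658 and 5035 in proliferating cells and 1919, 2196 and 1878 in myotubes (log2 changes −1.25 and −1.35, limma adjusted p = 1.3e-06 and 3.2e-06). Dpy30, a small shared subunit, had 365, 330 and 300 in proliferating cells, against 26, 42 and 30 in freshly isolated cells (log2 change 3.33, limma adjusted p = 3.1e-07). Of 12 Polycomb PRC1 genes 4 were higher and 6 lower in proliferating cells, and 1 was higher and 8 lower in myotubes than in proliferating cells. The chromobox subunits went separate ways, with Cbx2 at 559, 481 and 482 in proliferating cells, against 39, 47 and 32 in freshly isolated cells (log2 change 3.67, limma adjusted p = 2.5e-07), and Cbx7 at 233, 258 and 266 in proliferating cells, against 983, 871 and 1017 in freshly isolated cells (log2 change −1.92, limma adjusted p = 9.6e-07). Of 9 PRC2 and H3K27 demethylase genes 4 were higher and 4 lower in proliferating cells, among them Kdm6b, which removes the H3K27 methyl mark, at 1167, 1397 and 1302 in proliferating cells, against 31926, 29153 and 29713 in freshly isolated cells (log2 change −4.56, limma adjusted p = 2.8e-10).

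Retinoic acid, a signal that switches on head-ward Hox genes in the embryo, had 15 of 20 listed genes tested, of which 3 were higher and 7 lower in proliferating cells than in freshly isolated ones, and 7 higher and 3 lower in myotubes than in proliferating cells, beside the same background. Aldh1a1, which makes retinoic acid, had 3, 15 and 3 normalized reads in proliferating cells, against 1482, 1814 and 1869 in freshly isolated cells (log2 change −8.08, limma adjusted p = 2.3e-07, and −8.74 without proliferating library 2). Cyp26a1, which degrades it, had 2, 2 and 1 in proliferating cells, against 218, 161 and 147 in freshly isolated cells (log2 change −6.05, limma adjusted p = 1.9e-07). Rxrg, a retinoid X receptor of muscle, had 131, 137 and 123 in myotubes, against 8, 8 and 16 in proliferating cells (log2 change 3.56, limma adjusted p = 0.00073). Cdx1, Cdx2 and Cdx4, the caudal genes upstream of Hox genes in the embryo, had at most 2 normalized reads in any library. Of 16 listed Hox non-coding RNAs 15 were in the table and 6 tested, with 1 higher and 1 lower in proliferating cells than in freshly isolated ones. The relation of any of these genes to the Hox values was not tested.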
